A study of Mus musculus with 4 samples.

Results

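The spliceosome removes introns from pre-mRNA, and the 41 genes described here encode its core parts. They were chosen by gene name from a fixed membership list of small nuclear ribonucleoprotein (snRNP) proteins and closely bound factors, out of 48432 gene rows in the authors' table. All 41 names were found, each on 1 row, all 41 are protein-coding, and all 41 passed the filter of an average over both groups of at least 1 FPKM, as did 11697 gene names in all. FPKM counts sequenced fragments relative to transcript length and library size, so it is a level that can be compared between genes of different length.

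The RNA came from the contractile cells of the heart, the cardiomyocytes, released from mouse hearts by Langendorff perfusion. The MHC control group (2 libraries, genotype MHC) and the Rbfox2 OE group (2 libraries, genotype RbFox2) were both of a C57BL x FVB background and both ate a doxycycline diet for 3 days. RBFOX2 is an RNA-binding regulator of alternative splicing, and the series concerns its non-muscle isoform. The age of the animals, the transgene constructs and the promoter that drives them are not given in the sources used here. The table gives for each gene 1 pooled FPKM per group, bracketed by a lower and upper bound, so there is no spread between libraries and no test, and every value below is the authors' pooled value. The confidence level behind these bounds is not given in the sources used here. A ratio is called past 1.5-fold on the log2(FPKM + 1) scale, and bounds are called separate where the lower bound of one group lies above the upper bound of the other. All 1871 genes with separate bounds were also past 1.5-fold, so separate bounds are the stricter rule.

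As background, the snRNPs assemble on each intron in order. The U1 snRNP pairs with the 5′ splice site, SF1 and U2AF mark the branch point and the 3′ splice site, and the U2 snRNP then takes the branch point. The U4/U6.U5 tri-snRNP joins next, and helicases and the Prp19 complex remodel the assembly into its active form. RBFOX proteins do not belong to this core: they bind near exons and change how it uses particular splice sites. The core genes are needed in every cell, the cardiomyocyte included.

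Rbfox2 stood at 14.7 FPKM in MHC cells and 293 FPKM in Rbfox2 OE cells, as the labels say. As deposited, the core genes held nearly the same summed level in both groups, 1021 FPKM in MHC cells and 1041 FPKM in Rbfox2 OE cells. The sum over all genes was 512908 FPKM in MHC cells and 446802 FPKM in Rbfox2 OE cells, so this closeness rests on the scaling. The core sums include Prpf19, which went from 141 to 62.4 FPKM. Of the 41 genes, 31 stayed within 1.5-fold on the log2(FPKM + 1) scale. Past 1.5-fold were 5 higher and 5 lower, or 12.2% each way. Across all 11697 genes, 16.6% were past 1.5-fold higher and 22.1% past 1.5-fold lower. Bounds were separate for 2 core genes, Prpf19 and Ddx46, both lower in Rbfox2 OE cells (4.88%, against 9.33% of all genes), and for 0 core genes in the higher direction (against 6.67% of all genes). At 2-fold, Luc7l was higher and Prpf19 and Ddx46 lower, where 6.97% of all genes were past 2-fold higher and 17.0% past 2-fold either way. The median log2 ratio was 0.03 for the core genes and -0.06 for all genes. The log2 ratios of the core genes had an SD of 0.52 across genes, and those of all genes an SD of 0.81.

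The closeness of the core sums, the sign of the all-gene median, and which core genes near 1.5-fold passed it, rested on the scaling. For a rescaling, the Rbfox2 OE values were multiplied by 1.11. This makes the FPKM sums of the groups equal without mitochondrial genes and the 10 most abundant genes of each group. The median of all genes moved to 0.07 and that of the core genes to 0.18. The core genes past 1.5-fold then split into 10 higher and 3 lower, and all genes into 21.7% higher and 17.5% lower. Snrpe, Sf3b1, Sf3a3, Sf1 and Luc7l3 were the genes that passed 1.5-fold higher only there or with the median gene centred on 0, and Sf3b2 and Prpf6 no longer passed it on the lower side. Prpf19 and Ddx46 kept separate bounds under that scaling, and Luc7l, Sf3b4 and Dhx15 gained them on the higher side, where 8.69% of all genes then lay. Of the 41 genes, only U2af2 and Eftud2 changed sign, and the core median stayed above 0.

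**Figure D1:**
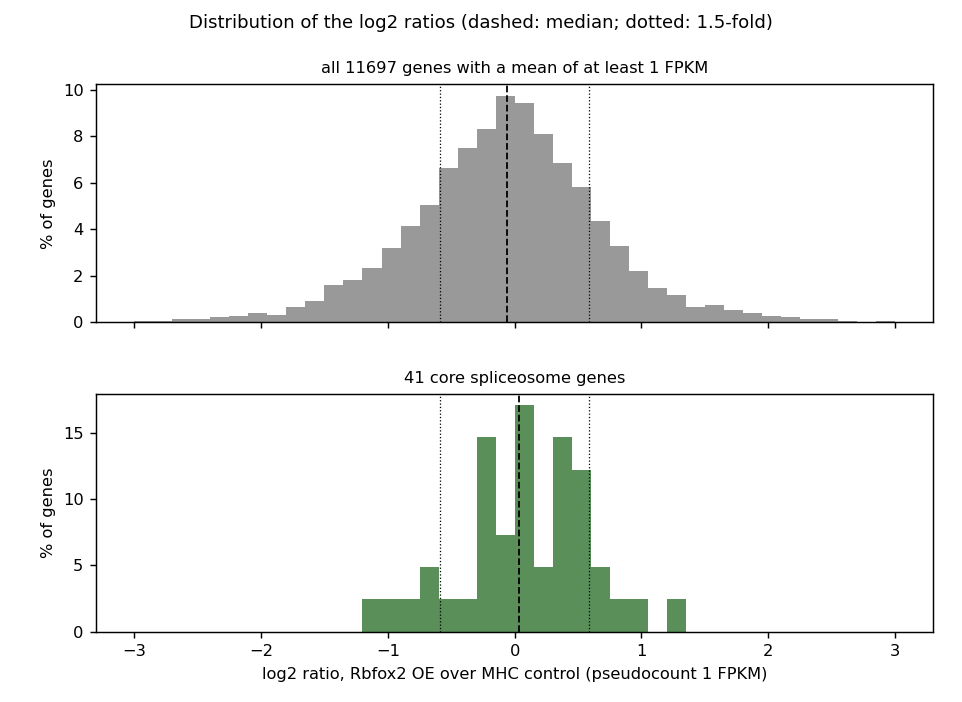
Distribution of log2 ratios (Rbfox2 OE over MHC control, pseudocount 1 FPKM; x axis) as a percent of genes (y axis) for all 11697 genes above and the 41 core spliceosome genes below. Dashed lines are medians (-0.06 and 0.03) and dotted lines mark 1.5-fold; 58 of the 11697 genes lie beyond the plotted range of 3 either way, and no core gene does.

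The preparations also held RNA of other cells, and their markers differed between the groups. Log2 ratios were above 0 for every compared marker of fibroblasts, endothelium, macrophages and leukocytes, and smooth muscle and pericytes. Past 1.5-fold higher were 9 of 10 fibroblast, 5 of 10 endothelial, 10 of 10 macrophage and leukocyte and 6 of 8 smooth muscle and pericyte markers, and the bounds were separate for 7, 3, 9 and 3 of them. The summed level went from 239.9 to 562 FPKM for fibroblast markers, from 281.9 to 493 FPKM for endothelial markers, from 110.7 to 389 FPKM for macrophage and leukocyte markers, and from 147 to 328 FPKM for smooth muscle and pericyte markers. Red blood cell markers went from 56.6 to 295 FPKM. Of 11 compared cardiomyocyte markers, 10 had a log2 ratio below 0, 6 were past 1.5-fold lower and 5 had separate bounds lower. The remaining marker, Ttn, was past 1.5-fold higher, at 166 and 252 FPKM with overlapping bounds. The sum of the cardiomyocyte markers went from 63695 to 40144 FPKM. Myh6 is listed at 0 in both groups because the authors' status column gives it no estimate. Myl2, at 24688 and 18007 FPKM, stood far above the markers of other cells in both groups. The part of these shifts in the spliceosome values below was not tested, and in bulk RNA fewer cells of a type and less RNA per cell cannot be told apart.

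**Figure D2:**
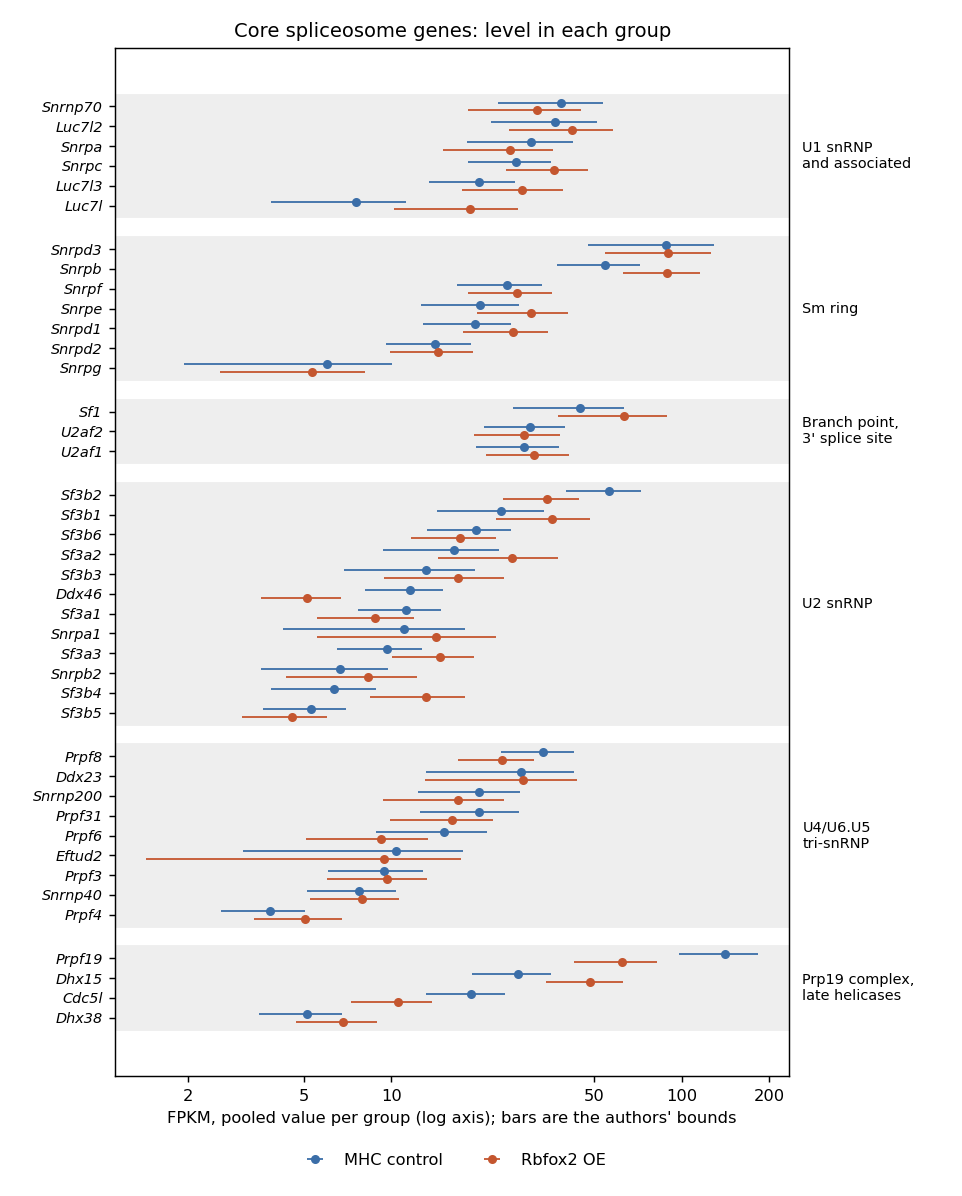
Pooled FPKM (log x axis) of each of the 41 core spliceosome genes in the MHC control (blue) and Rbfox2 OE (orange), grouped by role and ordered by control level; bars are the authors' lower and upper bounds. The bars of the groups are apart for Ddx46 and Prpf19 and overlap for the other 39 genes.

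Prpf19 and Ddx46, each at a ratio of 0.444, were the core genes with separate bounds. Prpf19 belongs to the Prp19 complex, which joins the spliceosome as it is activated and holds its catalytic core together. Prpf19, its ubiquitin ligase subunit, stood at 141 FPKM in MHC cells (bounds 97.8 to 183) and 62.4 FPKM in Rbfox2 OE cells (bounds 42.5 to 82.4). It was the most abundant of the 41 transcripts in MHC cells and ranked 4 in Rbfox2 OE cells. The ratio was 0.444 and the log2 ratio -1.16, and the bounds allow log2 ratios from -2.08 to -0.24. The gene (ENSMUSG00000024735.13, GRCm38 chromosome 19, 10895231 to 10909559, plus strand) overlaps no other annotated gene, and 1.07% of its 50-base transcript windows occur in another gene's transcripts.

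Cdc5l, the Myb-related scaffold that binds PRPF19, stood at 18.8 FPKM in MHC cells (bounds 13.2 to 24.5) and 10.5 FPKM in Rbfox2 OE cells (bounds 7.28 to 13.8), a log2 ratio of -0.78. Its bounds met over a narrow stretch, so it missed the stricter rule. Of its 50-base windows, 34.8% are shared with other genes, 12 in all. The gene sharing most, Gm9049, is listed at 0 in both groups. That 0 itself depends on how fragments were assigned, so the Cdc5l values stay uncertain by this sharing. The 2 remaining subunits of the Prp19 core are not among the 41 genes and were grouped with them after values were seen. Bcas2, which encodes the SPF27 subunit, stood at 27.4 FPKM (bounds 18.7 to 36.1) and 11.6 FPKM (bounds 7.18 to 15.9), a log2 ratio of -1.18 with separate bounds. Plrg1, a WD-repeat subunit, stood at 12.9 FPKM (bounds 8.84 to 17.0) and 7.93 FPKM (bounds 5.26 to 10.6), a log2 ratio of -0.64 with overlapping bounds. All 4 subunits were past 1.5-fold lower as deposited, 2 of them with separate bounds, where 22.1% and 9.33% of all genes were; since they were put together after their values were seen, the count says nothing about the complex. Among other proteins bound to it, Cwc15 had a log2 ratio of 0.41 and Ctnnbl1 of -0.54, neither past 1.5-fold. Under the rescaling, and with the median gene centred on 0, Prpf19, Cdc5l and Bcas2 were still past 1.5-fold lower, while Plrg1 was not, at -0.50 and -0.57.

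The core genes hold a pair of late-acting helicases. Dhx15, the helicase that releases the lariat intron and takes the spent spliceosome apart, stood at 27.2 FPKM in MHC cells (bounds 18.9 to 35.6) and 48.3 FPKM in Rbfox2 OE cells (bounds 34.0 to 62.6). Its log2 ratio was 0.80, and its bounds overlapped by a small margin. Dhx38, the PRP16 helicase that acts between the splicing steps, was the lowest gene of this group, at 5.12 FPKM (bounds 3.50 to 6.73) and 6.83 FPKM (bounds 4.71 to 8.95), a log2 ratio of 0.36. Helicases of the list of activation and second-step factors had log2 ratios of -0.02 for Dhx8, -0.14 for Aqr, -0.27 for Dhx16 and -0.59, just past 1.5-fold lower as deposited, for Ddx41.

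In the U2 snRNP, which recognises the branch point, 7 of 12 genes had a log2 ratio above 0 and 5 below, with a median of 0.31. Ddx46, the PRP5 helicase that readies the U2 snRNP for the branch point, stood at 11.6 FPKM in MHC cells (bounds 8.12 to 15.0) and 5.14 FPKM in Rbfox2 OE cells (bounds 3.55 to 6.72). The ratio was 0.444 and the log2 ratio -1.04, and the bounds allow log2 ratios from -1.82 to -0.24. The gene (ENSMUSG00000021500.15, GRCm38 chromosome 13, 55635027 to 55681256, plus strand) overlaps no other annotated gene, and 0% of its 50-base windows occur elsewhere. U2surp, an SR-related protein of the U2 snRNP and no member of the core list, stood at 12.4 FPKM (bounds 8.19 to 16.6) and 5.49 FPKM (bounds 3.38 to 7.60), also with separate bounds, which overlapped under the rescaling.

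The sequences just upstream of Prpf19, Cdc5l, Ddx46 and Dhx15, all past 1.5-fold, are shown so that their promoters can be compared. Each is the 250 bases before an annotated RefSeq start on GRCm38.p6, 5′ to 3′ on the gene's strand, with the ETS core motif CCGGAAG and the cyclic AMP response element TGACGTCA in capitals on either strand. Prpf19 (chr19:10894981-10895230, plus strand), Cdc5l (chr17:45433708-45433957, minus strand) and Ddx46 (chr13:55634749-55634998, plus strand) were lower in Rbfox2 OE cells, and Dhx15 (chr5:52190547-52190796, minus strand) was higher.
Prpf19: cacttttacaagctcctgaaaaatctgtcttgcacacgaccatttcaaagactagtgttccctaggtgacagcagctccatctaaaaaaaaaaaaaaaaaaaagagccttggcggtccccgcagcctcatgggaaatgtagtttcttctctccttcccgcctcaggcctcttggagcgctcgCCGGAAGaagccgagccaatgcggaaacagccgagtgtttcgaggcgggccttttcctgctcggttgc
Cdc5l: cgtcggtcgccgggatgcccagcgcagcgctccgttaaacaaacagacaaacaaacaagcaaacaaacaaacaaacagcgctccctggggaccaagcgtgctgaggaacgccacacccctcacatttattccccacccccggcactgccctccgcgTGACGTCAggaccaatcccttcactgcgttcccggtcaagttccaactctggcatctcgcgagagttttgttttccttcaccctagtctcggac
Ddx46: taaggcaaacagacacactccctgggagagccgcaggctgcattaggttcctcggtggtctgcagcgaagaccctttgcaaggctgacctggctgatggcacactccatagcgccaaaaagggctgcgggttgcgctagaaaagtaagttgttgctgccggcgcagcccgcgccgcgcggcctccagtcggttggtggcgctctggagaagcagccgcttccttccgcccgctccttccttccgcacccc
Dhx15: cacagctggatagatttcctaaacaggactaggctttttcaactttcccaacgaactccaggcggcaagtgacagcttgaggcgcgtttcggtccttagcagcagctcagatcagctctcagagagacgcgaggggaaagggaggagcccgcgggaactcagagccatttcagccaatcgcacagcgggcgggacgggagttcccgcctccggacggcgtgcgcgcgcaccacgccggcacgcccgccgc
The Prpf19 window shown holds 1 ETS core, a further RefSeq window of Prpf19 (chr19:10898395-10898644) holds 0, and the Cdc5l window holds 1 cyclic AMP response element, while neither motif occurs in the windows of Ddx46 and Dhx15. RefSeq promoter windows were matched for 31 of the 41 genes, 36 windows in all. Luc7l and Sf3b4, whose log2 ratios were larger in size than those of Cdc5l and Dhx15, are not among them. The ETS core occurred in the windows of 12 of the 31 genes (13 of 36 windows, 36.1%), against 6.91% of all 32851 promoter windows of the same length. Those windows were not limited to the genes compared here, so no share over expressed genes is given for any motif. Overlapping windows of a gene were each counted: those of Sf3b2 nearly coincide and both hold the ETS core. The GC box GGGCGG occurred in 50% of the core windows and 32.7% of all windows, and the CCAAT box CCAAT in 44.4% and 33.8%. The TATA box TATAAA occurred in 5.56% of the core windows and 12.4% of all windows, the E-box CACGTG in 8.33% and 6.02%, and the cyclic AMP response element in 8.33% and 1.55%. Each motif was searched on its own on both strands, so matches may overlap, and the core windows were richer in G and C (median 57.4%) than all windows (median 52.4%). Matches of letters are a description and not binding sites.

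The SF3B complex, which clamps the branch point, had members on both sides. Sf3b2, the SF3B scaffold subunit and the most abundant gene of the U2 group in MHC cells, stood at 56.1 FPKM (bounds 39.8 to 72.3) there and 34.2 FPKM in Rbfox2 OE cells (bounds 24.2 to 44.3), a log2 ratio of -0.70, or -0.55 and no longer past 1.5-fold under the rescaling. Sf3b4, an RNA-binding subunit that contacts pre-mRNA near the branch point, stood at 6.36 FPKM in MHC cells (bounds 3.85 to 8.87) and 13.2 FPKM in Rbfox2 OE cells (bounds 8.46 to 17.9), a log2 ratio of 0.94. The bounds overlapped in both cases, for Sf3b4 by a narrow margin. Of the 50-base windows of Sf3b4, 43.6% also occur in the processed pseudogene Gm7935, which stood at 0.0826 and 0.0764 FPKM. Those low values depend on how fragments were assigned, so the Sf3b4 values stay uncertain by this sharing.

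Sf3b1, the large SF3B subunit around the branch point adenosine, had 23.9 FPKM in MHC cells and 35.6 FPKM in Rbfox2 OE cells, a log2 ratio of 0.56, just short of 1.5-fold. Sf3b3, its partner, had 13.1 and 17.0 FPKM, and Sf3b6, which touches the branch point, had 19.6 and 17.2 FPKM. Sf3b5, the smallest and the lowest of the U2 group, had 5.30 and 4.54 FPKM. Over the 6 SF3B genes 3 ratios were above 0 and 3 below, and the bounds of each overlapped.

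In SF3A, which joins SF3B to the U2 core, Sf3a2 was past 1.5-fold higher, at 16.4 FPKM in MHC cells (bounds 9.35 to 23.5) and 25.9 FPKM in Rbfox2 OE cells (bounds 14.5 to 37.4), a log2 ratio of 0.63. Sf3a3 had 9.63 and 14.7 FPKM and a log2 ratio of 0.56, whereas Sf3a1 had 11.3 and 8.76 FPKM and a log2 ratio of -0.33. The U2-specific proteins Snrpa1 and Snrpb2, which bind U2 snRNA together, had log2 ratios of 0.33 and 0.28. None of these bounds were separate.

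**Figure D3:**
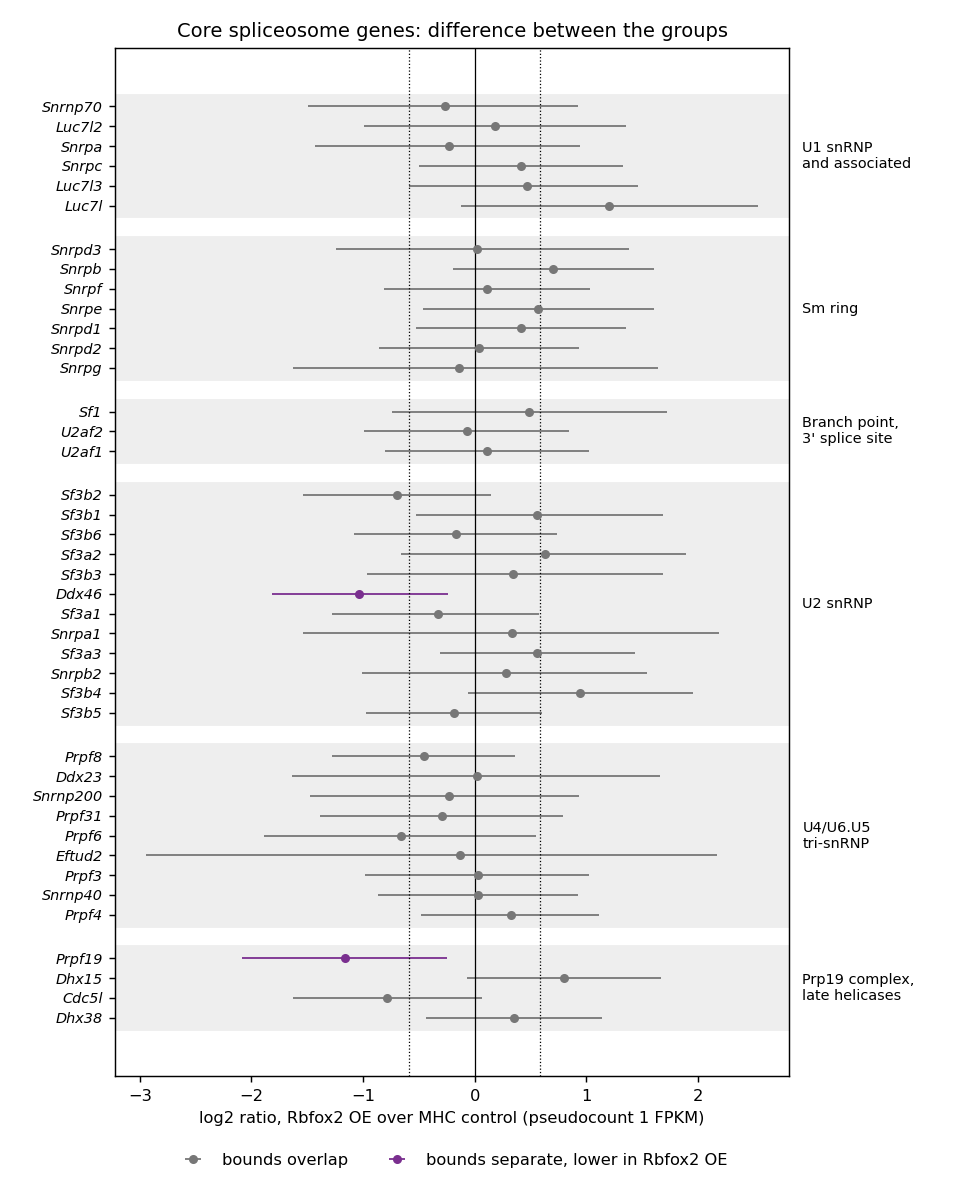
The log2 ratio (Rbfox2 OE over MHC control, pseudocount 1 FPKM; x axis) of each core spliceosome gene by role; bars run from the lowest to the highest ratio that the authors' bounds allow, and dotted lines mark 1.5-fold. The bars of Ddx46 and Prpf19 (purple) lie wholly below 0, and the other 39 cross it.

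Among the U1 snRNP genes and their partners the 3 Luc7-like genes, which stabilise U1 on the 5′ splice site, were all on the higher side. Luc7l stood at 7.53 FPKM in MHC cells (bounds 3.84 to 11.2) and 18.7 FPKM in Rbfox2 OE cells (bounds 10.2 to 27.2). Its ratio of 2.48 and log2 ratio of 1.21 were the highest of the 41 genes, yet the bounds overlapped. Luc7l was the lowest of the U1 group in both groups of mice, so the 3 paralogues lay closer together in Rbfox2 OE cells: Luc7l2 had 36.6 and 41.7 FPKM and Luc7l3 had 20.1 and 28.2 FPKM. Luc7l overlaps 2 other annotated genes, of which 1 lies on the opposite strand.

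The 3 proteins specific to the U1 particle differed little. Snrnp70, which binds the first stem-loop of U1 RNA and was the most abundant of the group in MHC cells, had 38.4 FPKM (bounds 23.2 to 53.5) and 31.7 FPKM (bounds 18.4 to 45.0). Snrpa, which binds the second stem-loop, had 30.2 and 25.5 FPKM, and Snrpc, which steadies the pairing with the 5′ splice site, had 26.9 and 36.2 FPKM. Their log2 ratios were -0.27, -0.23 and 0.42.

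The 7 Sm proteins form a ring around the U1, U2, U4 and U5 RNAs in equal numbers, but their transcript levels spread widely. In the control they ran from 5.99 FPKM for Snrpg to 88.5 FPKM for Snrpd3, a 14.8-fold range, and in Rbfox2 OE cells from 5.35 FPKM to 89.9 FPKM for the same genes, a 16.8-fold range. Snrpb, which encodes SmB, was the 1 Sm gene past 1.5-fold as deposited, at 54.4 FPKM in MHC cells (bounds 37.2 to 71.5) and 89.0 FPKM in Rbfox2 OE cells (bounds 62.5 to 115.5), a log2 ratio of 0.70 with overlapping bounds. Snrpe followed, at 20.1 and 30.2 FPKM with a log2 ratio of 0.56, which passed 1.5-fold with the median gene centred on 0 (0.64) and under the rescaling (0.71), then Snrpd1, at 19.4 and 26.1 FPKM.

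Snrpf, Snrpd2 and Snrpd3 had log2 ratios of 0.11, 0.03 and 0.02, and Snrpg alone of the 7 lay below 0, at -0.14. The Sm median was 0.11. Snrpn, the SmB paralogue and no member of the core list, had 38.0 FPKM (bounds 26.2 to 49.8) and 55.4 FPKM (bounds 38.9 to 71.9), a log2 ratio of 0.53. Short Sm transcripts have processed pseudogenes: 21.3% of the 50-base windows of Snrpf and 11.3% of those of Snrpg occur in other genes, and the pseudogene Gm8186 itself stood at 4.72 and 4.48 FPKM beside Snrpg. The values of Snrpg and Gm8186 are therefore uncertain by the way fragments were shared between them.

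None of the 3 factors that first mark the 3′ end of the intron was past 1.5-fold as deposited. Sf1, the branch point binding protein, had 44.7 FPKM in MHC cells (bounds 26.2 to 63.2) and 63.1 FPKM in Rbfox2 OE cells (bounds 37.4 to 88.8), a log2 ratio of 0.49, or 0.64 and past 1.5-fold higher under the rescaling. U2af2, which reads the polypyrimidine tract, had 30.1 and 28.7 FPKM. U2af1, which reads the AG at the 3′ splice site and was the lowest of the 3 in MHC cells, had 28.6 FPKM (bounds 19.6 to 37.7) and 31.0 FPKM (bounds 21.2 to 40.7). The log2 ratios of the U2AF pair were -0.07 and 0.11. Of the 50-base windows, 14.7% of those of U2af2 and 21.7% of those of U2af1 occur in other genes.

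In the tri-snRNP 5 of 9 log2 ratios were below 0, as were 6289 of all 11697, and the median was -0.13, near that of all genes. Under the rescaling Eftud2 passed to the higher side, so that 4 of 9 lay below 0. Prpf6, which bridges the U5 and U4/U6 particles, was the 1 gene past 1.5-fold lower (11.1%, against 22.1% of all genes), at 15.1 FPKM in MHC cells (bounds 8.83 to 21.4) and 9.21 FPKM in Rbfox2 OE cells (bounds 5.07 to 13.4), a log2 ratio of -0.66. Prpf6 overlaps 2 genes on the opposite strand, and under the rescaling it was no longer past 1.5-fold. Prpf8, the scaffold of the catalytic centre, had the highest control level of the group, at 33.2 FPKM (bounds 23.8 to 42.6), against 23.9 FPKM in Rbfox2 OE cells (bounds 17.0 to 30.9), a log2 ratio of -0.46.

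The other U5 genes were close to even. Snrnp200, the helicase that unwinds U4 from U6, had 20.0 and 16.9 FPKM, and Ddx23, the helicase needed for tri-snRNP joining, had 27.9 and 28.3 FPKM. Eftud2, the U5 GTPase, had 10.4 and 9.39 FPKM, with the widest bounds of the 41 genes relative to its value in both groups, and it shares its table locus with 11 other genes. Snrnp40, a WD-repeat protein of U5, had 7.74 and 7.94 FPKM.

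Of the U4/U6 proteins, Prpf3 had 9.47 and 9.67 FPKM and Prpf31 had 20.0 and 16.2 FPKM. Prpf4, the partner of PRPF3 and the lowest of the 41 genes in MHC cells, had 3.82 FPKM there (bounds 2.58 to 5.06) and 5.06 FPKM in Rbfox2 OE cells (bounds 3.35 to 6.77), a log2 ratio of 0.33. Among the 9 tri-snRNP genes, the bounds of every gene overlapped.

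Most core transcripts were above the middle of the compared genes. In the control 33 of the 41 lay above the median of all compared genes (8.08 FPKM), and in Rbfox2 OE cells 36 did (median 7.57 FPKM). The highest and the lowest of the 41 were 36.8-fold apart in MHC cells and 19.8-fold apart in Rbfox2 OE cells, where the highest was Snrpd3 and the lowest Sf3b5. Across the 41 genes the log2(FPKM + 1) levels in the groups gave Pearson's r 0.88 and Spearman's rho 0.89, against 0.90 and 0.88 over all compared genes; genes are not independent replicates. The log2 ratio had a Pearson's r of -0.18 with the log10 genomic span of the gene and -0.03 with the log2 mean FPKM over the 41 genes, and -0.19 and -0.11 over the compared genes with an annotation.

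The 41 genes lie on 16 chromosomes, so they share no one region. Of them, 19 overlap another annotated gene, 16 of those with a gene on the opposite strand, and 8 have a protein-coding neighbour that starts within 1000 bases upstream on the other strand. Of the 8 neighbours, 6 reached a mean of 1 FPKM, and the bounds of 0 of the 6 were separate, against 16.0% of all genes. Among these, Tfpt and Zcchc17 had lower bounds of 0 in both groups, so their bounds could not be separate. The nearest, Txnl4b, starts 31 bases from Dhx38 and had 3.62 and 3.64 FPKM. Cdc26, 155 bases from Prpf4, had 23.1 and 31.6 FPKM and a log2 ratio of 0.43 beside the 0.33 of Prpf4.

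The rest of the splicing machinery was read from 7 further lists with 96 genes, of which 94 were measured at a mean of 1 FPKM or more. Of the 94, 5 were past 1.5-fold higher (5.32%, against 16.6% of all genes) and 10 past 1.5-fold lower (10.6%, against 22.1%). In each direction 3 had separate bounds, where 6.67% of all genes were higher and 9.33% lower, and the median log2 ratio was -0.02. The list of Prp19-related, activation and second-step factors held 7 of the 10 lower genes among its 24, a share of 29.2% that lies near the 22.1% of all genes. Its largest difference was Ppil1, a cyclophilin of the activated spliceosome, at 19.9 FPKM in MHC cells (bounds 13.4 to 26.4) and 5.27 FPKM in Rbfox2 OE cells (bounds 3.24 to 7.31), a log2 ratio of -1.73 with separate bounds. Bcas2, given above, was the other gene of that list with separate bounds. Ppie and Crnkl1, also of the activated complex, had log2 ratios of -0.94 and -0.80 with overlapping bounds.

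Genes with separate bounds on the higher side came from 3 other lists. Snrnp48, of the minor spliceosome that removes rare introns, had 6.64 FPKM in MHC cells (bounds 4.08 to 9.19) and 17.0 FPKM in Rbfox2 OE cells (bounds 11.0 to 23.0), a log2 ratio of 1.24. Zmat2, a tri-snRNP and B complex protein, had 23.8 FPKM (bounds 16.6 to 31.1) and 50.5 FPKM (bounds 35.7 to 65.3), a log2 ratio of 1.05. Pnn, which associates with the exon junction complex, had 13.5 FPKM (bounds 9.41 to 17.6) and 28.6 FPKM (bounds 20.1 to 37.0), a log2 ratio of 1.03.

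The LSm ring, which binds U6 RNA or, in another form, guides mRNA decay, had 1 of 8 genes past 1.5-fold lower (Lsm8, log2 ratio -0.62) and 0 higher. The Sm assembly factors, which load the Sm ring, had 1 of 12 lower (Prmt5, the methyltransferase of Sm tails, log2 ratio -0.73) and 0 higher. These shares of 12.5% and 8.33% lower stand beside 22.1% of all genes lower and 16.6% higher. The bounds of these 20 genes all overlapped, where 16.0% of all genes had separate bounds either way.

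**Figure D4:**
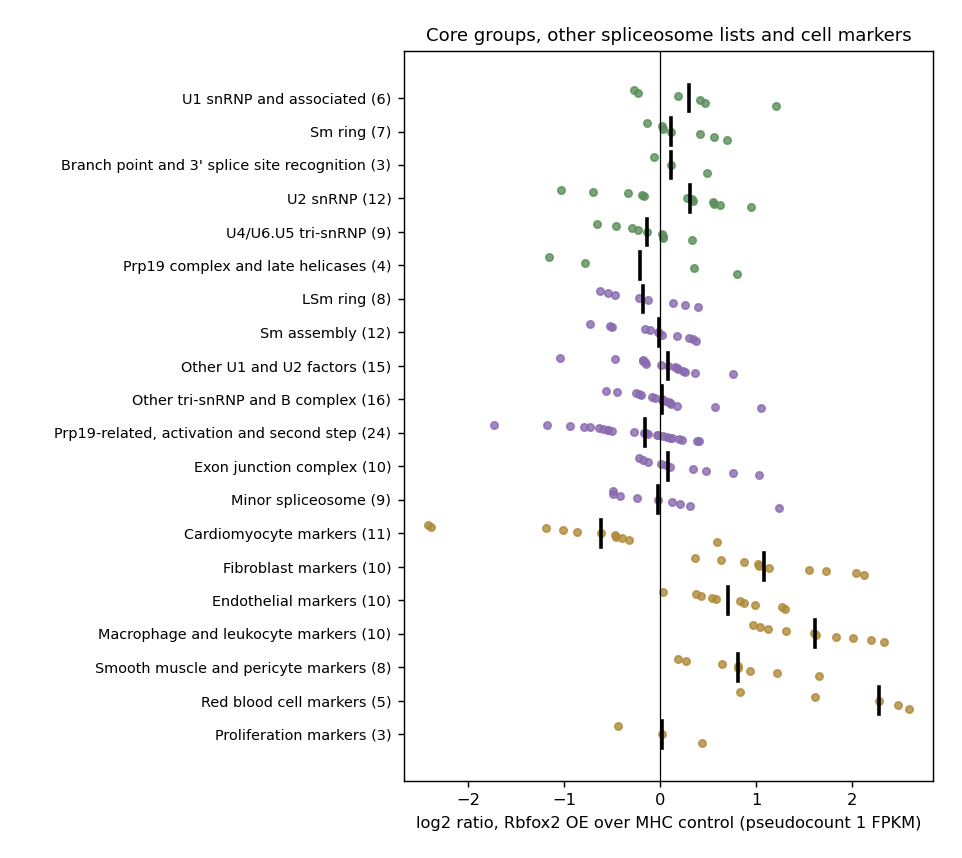
The log2 ratio (Rbfox2 OE over MHC control, pseudocount 1 FPKM; x axis) of each gene in the core groups (green), the other spliceosome lists (violet) and the cell marker lists (ochre); the number of genes compared is in brackets and black ticks are medians. The medians of the plotted spliceosome groups lie between -0.21 and 0.31, each over genes on both sides of 0, and 5 of the 7 marker medians lie at 0.71 or above.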

How the data were processed

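Libraries were made from cardiomyocyte RNA with a stranded TruSeq mRNA kit and read on a HiSeq4000 after poly(A) selection, per the labels' protocols. Description labels put 2 libraries in the MHC group and 2 in Rbfox2 OE. The FPKM values and their bounds, also in FPKM, were made by the authors with Cuffdiff 2.2.1, per the submitters' processing notes and the file headers. These notes also list STAR 2.4.2a, Trimmomatic, Picard 1.119 and HTSeq and the build GRCm38 (mm10). The annotation, the normalization mode and the use of strand are not given in the sources used here. The status column (OK or HIDATA, other deposited values) marked 30 control and 26 Rbfox2 OE rows as having no estimate, and 0 of them are core genes. Depth in fragments is unknown, so no counting intervals are given.

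From the deposited FPKM, log2 ratios with a pseudocount of 1 FPKM were computed over genes whose average over both groups was at least 1 FPKM. This understates the change of low genes. Rows sharing a name (110 names) were summed. No limma fit was possible because there is 1 value per group. Coordinates come from GENCODE M21 (GRCm38), which matched 99.2% of identifiers, and promoters from RefSeq (GRCm38.p6). Cuffdiff assigns fragments among overlapping genes, and 17 of the 41 genes share a table locus with another gene. Named genes are those past 1.5-fold or with separate bounds, the highest and lowest of each role group, and up to 4 such genes per other list; further members are given for completeness. Members and lists were chosen with earlier results of these data known. Python 3.11.15, pandas 2.3.3 and numpy 2.4.6 were used.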

Additional observations from a re-analysis of the deposited data

How the results depend on the processing

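No paired analysis was possible because the libraries of a group were merged into 1 value by the authors, and for the same reason no library was left out in turn. How far the libraries of a group differ is unknown and limits every value, as does the unknown depth. The log2 ratios of the 10 core genes past 1.5-fold kept their sign under both other pseudocounts and both other scalings, which was fixed in advance. A pseudocount cannot change a sign, and the larger scaling shifts a log2 ratio by at most 0.15, less than the threshold of 0.58. The ratios also stayed within the range of their bounds, but that range is wide, so this says little about how firm they are. A 2-fold threshold left 1 core gene higher and 2 lower, with 815 and 1172 of all genes. Centring on the median gene gave 8 core genes past 1.5-fold higher (19.5%, against 19.0% of all genes). It gave 2 with separate bounds higher (4.88%, against 7.60% of all genes). Rescaling without mitochondrial and top genes gave 10 higher (24.4%, against 21.7% of all genes) and 3 lower (7.32%, against 17.5%). It gave 3 with separate bounds higher (7.32%, against 8.69%), a core median of 0.18 and an all-gene median of 0.066. As deposited, the all-gene median was -0.062, and 0.012 with no filter. A pseudocount of 5 FPKM gave 980 of all genes higher and 1598 lower, because it shrinks low ratios. With it, 4 core genes were past 1.5-fold higher and 4 lower. A pseudocount of 0.1 FPKM gave 6 core genes higher and 5 lower, with 2371 and 3001 of all genes. Raising the filter to a mean of 5 FPKM, with fewer genes compared, gave 1121 higher, 446 of all genes with separate bounds higher. Leaving out genes without an estimate or with repeated names left each count of core genes as it was.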
